A study of Bos taurus with 54 samples.

Results

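The nuclear-encoded subunits of the respiratory chain were taken as all genes whose symbol starts with NDUFA, NDUFB, NDUFC, NDUFS or NDUFV and a number (complex I), is SDHA to SDHD (complex II), or starts with UQCR (complex III), COX4 to COX8 followed by a letter (complex IV), or ATP5F, ATP5M or ATP5P (complex V). The rule found 84 of the 32637 genes in the count tables, with 38 in complex I, 4 in complex II, 8 in complex III, 17 in complex IV and 17 in complex V. The RNA came from whole blood of 15 Holstein male calves in climate-controlled rooms, drawn in the morning before heat exposure (thermoneutral control) and in the evening after 12 h of it (heat stress). Age is not given in the sources used here. All control samples were morning samples and all heat stress samples evening samples, so heat and time of day cannot be told apart. Red blood cells were lysed before extraction, and the RNA is that of the remaining cell pellet. Libraries were made with 2 kits that read the 3′ ends of mRNA, Lexogen QuantSeq 3′ ("Lexogen") and SMART-Seq v4 3′ DE from Takara ("Takara"), with 27 libraries each. The condition of animal 20 differed between its sample label and the study's design table, so its library in each kit was left out. This left 13 control and 13 heat stress libraries per kit, with 12 animals in both conditions.

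The respiratory chain sits in the inner mitochondrial membrane. Complex I (NADH dehydrogenase) and complex II (succinate dehydrogenase) pass electrons to ubiquinone, complex III passes them to cytochrome c, and complex IV passes them to oxygen. Complexes I, III and IV pump protons, and complex V (ATP synthase) uses the gradient to make ATP. Most subunits are encoded in the nucleus and some of the core subunits in the mitochondrial genome. Blood leukocytes differ in their use of the chain, and neutrophils are known to live largely on glycolysis.

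Counts on genes ranged from 5140595 to 20699030 in Takara libraries and from 4516761 to 58521751 in Lexogen libraries. The 84 genes made up 1.01% to 2.12% of these counts in Takara (median 1.72%) and 0.328% to 0.932% in Lexogen (median 0.536%). These shares are over all 27 libraries of each kit. The lowest Takara share was that of animal 20, and the lowest among the Takara libraries compared was 1.02%. In Lexogen, a pair of heat stress libraries stood apart. That of animal 15 was the deepest, and that of animal 18 had 4604914 counts and 7843 genes above 1 CPM (counts scaled by TMM library size to a common total), against 9246 to 12542 in the other Lexogen libraries compared. Of the members, 21 had their lowest Lexogen level in the library of animal 18 and 13 in that of animal 15. Of the control libraries, that of animal 14 held the lowest Lexogen level of 16 members, with 6394924 counts and 9246 genes above 1 CPM. The heat stress library of animal 18 was also the deepest in Takara, and 14 members had their lowest Takara level there. Comparisons were repeated without the heat stress libraries of animals 15 and 18, and with each animal left out in turn. Markers of T cells, B cells, monocytes, neutrophils and platelets were detected. HBB, the beta chain of haemoglobin, was present in every library compared, at a median of 1666 CPM in Takara control libraries, while HBA1 was at 0 in all.

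In Takara libraries, 12 of the 79 tested subunit genes were differentially expressed (DEGs), 3 up-regulated and 9 down-regulated after heat stress (edgeR quasi-likelihood test, adjusted p under 0.05 after Benjamini-Hochberg adjustment over all 12620 genes tested). Over all genes tested the share of DEGs was 28.9%, with 18.4% up-regulated and 10.5% down-regulated. The members held a smaller share of DEGs, 15.2%, and a share of down-regulated genes near the background (9 of 79). The median log2 fold change was -0.08 over the 79 subunits and -0.05 over all genes, and 52 of the 79 (65.8%) lay below 0, against 55.0% of all genes. Single changes were small, with log2 fold changes from -0.62 to 0.54. In bulk RNA, fewer cells of a type and less RNA per cell cannot be told apart.

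By complex, the median log2 fold change in Takara was -0.13 in complex I (2 up-regulated and 4 down-regulated of 37 tested), 0.05 in complex II (0 DEGs of 4 by edgeR, 1 at an unadjusted p under 0.05, 0 DEGs by DESeq2), -0.04 in complex III (2 down-regulated of 8), 0.03 in complex IV (1 down-regulated of 13) and -0.15 in complex V (1 up-regulated and 2 down-regulated of 17). Below 0 lay 28 of 37 genes in complex I, 2 of 4 in complex II, 4 of 8 in complex III, 5 of 13 in complex IV and 13 of 17 in complex V. Differences between the complexes were not tested. With the animal as a block, 7 members were DEGs (2 up-regulated, 5 down-regulated), of which 6 were among the 12. Over all 12651 genes tested with the block, 1881 were up-regulated and 1281 down-regulated. With the total count in place of TMM as library size, 0 members were up-regulated and 23 down-regulated, while the median of all genes moved from -0.05 to -0.27. Over all 12620 genes, 1303 were then up-regulated and 2185 down-regulated, against 2325 and 1321 in the main fit.

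**Figure D1:**
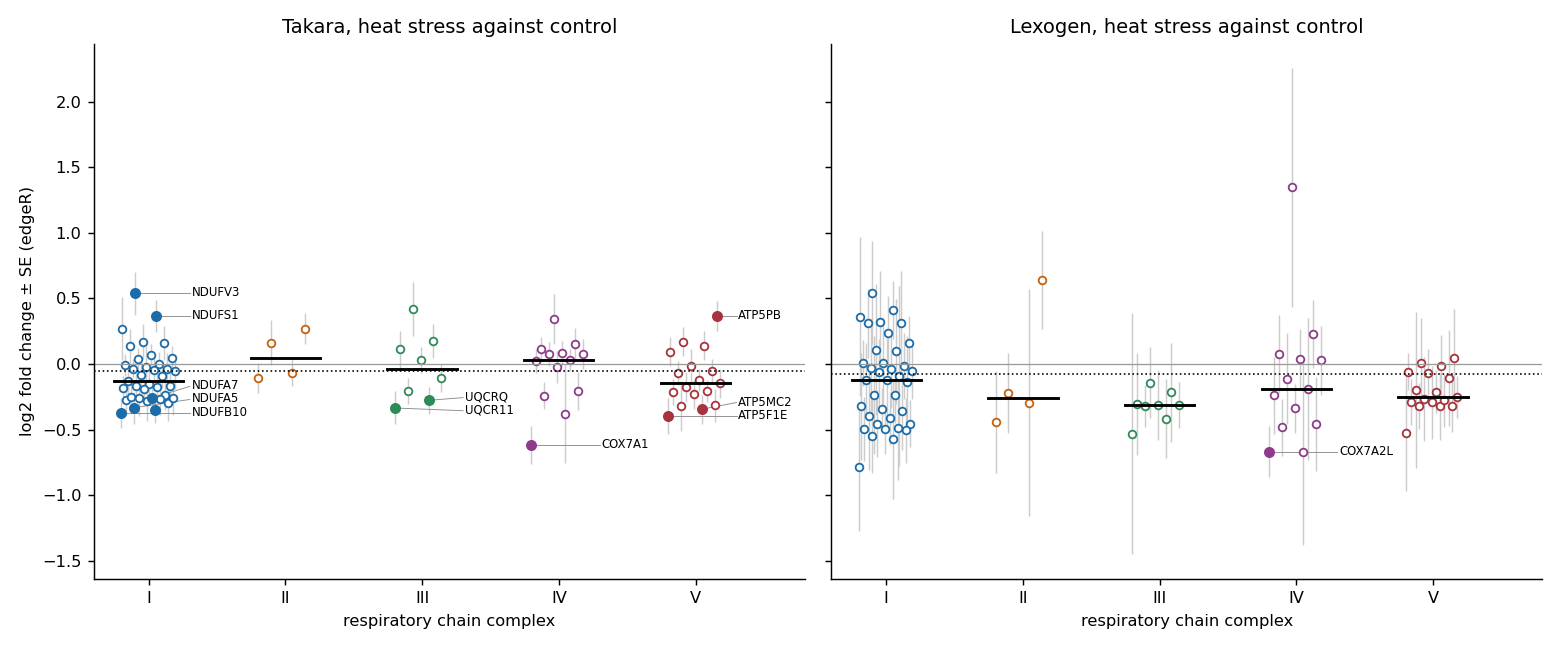
Log2 fold change of heat stress against control (vertical axis, with its standard error) of each tested subunit gene, by complex (horizontal axis), in Takara (left) and Lexogen (right). Filled points are DEGs, with symbols beside most of them, bars are medians per complex, and the dotted line is the median of all genes tested. Takara values lie between -0.62 and 0.54, and Lexogen values spread more widely, between -0.79 and 1.35.

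Without the heat stress libraries of animals 15 and 18, 3 members were DEGs, all down-regulated and all among the 12, with COX7A1 and NDUFB10 among them. Over all 12783 genes tested, 1623 were up-regulated and 747 down-regulated in that fit. COX7A1 and NDUFB10 were also DEGs in each of the 14 fits that left out 1 animal. Those fits gave between 5 and 15 DEGs, with 5 without animal 36, 6 without animal 18, and 7 without animal 7 and without animal 40. Over all genes those fits gave 1850 to 2481 up-regulated and 787 to 1632 down-regulated. The study's sample numbers fall in separate low and high ranges, called run 1 and run 2 here, which may be batches. Run 1 alone gave 5 DEGs, of which 2 were among the 12 and the others were ATP5MC1, NDUFS3 and SDHA, and run 2 alone gave 1 (ATP5F1E). Over all genes, run 1 gave 1879 up-regulated and 751 down-regulated of 12791, and run 2 gave 608 and 323 of 12661. All 12 DEGs had the same direction in both runs. The runs are parts of the libraries in which the 12 were called, so this is no separate test. With animal 20 counted as heat stress there were 14 DEGs among the members. Over all 12652 genes, 2528 were then up-regulated and 1672 down-regulated. With animal 20 counted as control there were 0 among the members and 0 among all genes (edgeR, 3804 genes at an unadjusted p under 0.05).

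Complex I oxidises NADH. Its NDUFS and NDUFV subunits include the core of the arm that reaches into the matrix, while NDUFA and NDUFB are accessory subunits. NDUFB10 (chr25:1516661-1519322, in ARS-UCD2.0 as all coordinates here), an accessory subunit of the membrane arm, had 365 to 519 (median 446) CPM in control libraries and 183 to 462 (median 341) in heat stress libraries. It was lower in 11 of 12 animals, and 5 of the 13 heat stress libraries lay within the control range. The log2 fold change was -0.37 ± 0.11 (SE, n = 13 and 13, edgeR adjusted p = 0.016).

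NDUFV3 (chr1:143120345-143131769), a small accessory subunit at the NADH-binding core, was up-regulated and had the highest log2 fold change of the 79 members in Takara. Levels were 62.7 to 138 (median 88.8) CPM in control and 81.1 to 231 (median 109) in heat stress. The groups overlapped, with 7 of 13 heat stress libraries inside the control range, and 10 of 12 animals were higher after heat. The log2 fold change was 0.54 ± 0.17 (edgeR adjusted p = 0.0161), and 0.37 (adjusted p = 0.0832) without the heat stress libraries of animals 15 and 18. It was a DEG in 12 of the 14 fits that left out 1 animal.

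Of the other DEGs of complex I, NDUFS1, NDUFA7 and NDUFA5 fell outside the rule for named genes and are named after their values were seen. NDUFS1 (chr2:94459779-94489927), the largest core subunit and a carrier of iron-sulfur clusters, had 17.5 to 35.1 (median 26.1) CPM in control and 22.96 to 49.2 (median 31.4) in heat stress. It was higher in 10 of 12 animals (0.36 ± 0.12 on the log2 scale, edgeR adjusted p = 0.0266, 0.0552 with the animal as a block). NDUFA7 (chr7:16960703-16967936), an accessory subunit, had 238 to 301 (median 274) CPM in control and 175 to 334 (median 215) in heat stress, and was lower in 10 of 12 animals (-0.26 ± 0.09, edgeR adjusted p = 0.0249, 0.0718 with the block). In NDUFS1, 11 of 13 heat stress libraries lay above the control median, and in NDUFA7, 12 of 13 lay below it. NDUFA5 (chr4:87868691-87886889), also an accessory subunit, had 48.3 to 103 (median 68.5) CPM in control and 38.6 to 75.9 (median 54.9) in heat stress, and was lower in 9 of 12 animals (-0.33 ± 0.12, edgeR adjusted p = 0.0416, 0.051 with the block).

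NDUFA4 carries a complex I name and is now counted as a part of complex IV. By the rule on symbols it stands in complex I in all counts, medians and sums here. It had 353 to 582 (median 477) CPM in control and 301 to 548 (median 426) in heat stress and was lower in 10 of 12 animals, but did not pass the test (-0.18 ± 0.10, edgeR adjusted p = 0.145). Its paralogue NDUFA4L2, known for its induction in low oxygen, did not pass the filter on low counts in either kit and was not tested.

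Complex II consists of 4 subunits, all encoded in the nucleus. SDHA and SDHB form its catalytic part, with the flavin and the iron-sulfur clusters, and SDHC and SDHD anchor it in the membrane. None was a DEG. SDHB (chr2:135549028-135578116) had 86.8 to 197 (median 146) CPM in control and 121 to 250.5 (median 165) in heat stress. Its level was higher after heat in 10 of 12 animals, and the log2 fold change was 0.27 ± 0.12 (edgeR adjusted p = 0.0861). SDHA had 113.6 to 242 (median 206) CPM in control and 132 to 240.1 (median 168) in heat stress, with 13 of 13 heat stress libraries inside the control range (-0.11 ± 0.11, edgeR adjusted p = 0.493). SDHC had 24.8 to 76.1 (median 67.1) CPM in control and 33.8 to 111 (median 62.6) in heat stress (0.16 ± 0.17, edgeR adjusted p = 0.48). SDHD had 90.1 to 152 (median 124) CPM in control and 91.3 to 175 (median 120.2) in heat stress (-0.07 ± 0.10, edgeR adjusted p = 0.648).

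The runs of sample numbers gave different values for complex II in Takara. The median log2 fold change of the 4 genes was -0.26 in run 1 alone and 0.40 in run 2 alone. SDHA was at -0.40 (edgeR adjusted p = 0.0359) in run 1 and at 0.26 (adjusted p = 0.38) in run 2. SDHC was at -0.19 and 0.59, and SDHD at -0.32 and 0.25. The difference between the runs was not tested.

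Complex III passes electrons from ubiquinol to cytochrome c. Both of its DEGs are small supernumerary subunits. UQCR11 (chr7:43976258-43979178) had 238 to 530.5 (median 361) CPM in control and 179.8 to 381 (median 297) in heat stress, and was lower in 10 of 12 animals (-0.34 ± 0.13, edgeR adjusted p = 0.0449). UQCRQ (chr7:44447595-44448862) had 87.6 to 168 (median 126) CPM in control and 86.1 to 135 (median 108) in heat stress, and was lower in 9 of 12 (-0.28 ± 0.10, edgeR adjusted p = 0.0444). Most heat stress libraries lay inside the control range, 11 of 13 for UQCR11 and 12 of 13 for UQCRQ. With the animal as a block the adjusted p was 0.0911 and 0.104, and the genes were DEGs in 3 and 5 of the 14 fits that left out 1 animal. UQCR11 was at -0.16 (edgeR adjusted p = 0.505) in run 1 and -0.49 (adjusted p = 0.0803) in run 2. UQCRQ was at -0.12 (edgeR adjusted p = 0.562) in run 1 and -0.42 (adjusted p = 0.0731) in run 2. The difference between the runs was not tested.

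UQCRC1 (chr22:51275060-51283828), a core protein of the complex, had the highest log2 fold change of complex III with a wide error (0.42 ± 0.21, edgeR adjusted p = 0.128). Levels were 37.3 to 113.2 (median 89.6) CPM in control and 49.1 to 189 (median 112) in heat stress, with 9 of 12 animals higher. With sense counts the log2 fold change was 0.26 in Takara, and in Lexogen it was -0.53 ± 0.92 with unstranded and 0.51 with sense counts. UQCRH, the hinge protein, had 149 to 249 (median 175) CPM in control and 117.6 to 217 (median 155) in heat stress. It was lower in 10 of 12 animals and did not pass the test (-0.20 ± 0.10, edgeR adjusted p = 0.124).

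Complex IV, cytochrome c oxidase, has several nuclear subunits that exist as tissue-type isoforms. COX7A1 (chr18:46806369-46807949), known as the heart and muscle isoform of its subunit, had the lowest log2 fold change of the 79 members in Takara. Control libraries had 59.6 to 143 (median 84.2) CPM and heat stress libraries 36.7 to 99.6 (median 56.7). The level was lower after heat in 12 of 12 animals, and 12 of 13 heat stress libraries lay below the control median. The log2 fold change was -0.62 ± 0.14 (edgeR adjusted p = 0.0024), and -0.66 (adjusted p = 0.0108) with the animal as a block. It was -0.51 (edgeR adjusted p = 0.0769) in run 1 and -0.73 (adjusted p = 0.0513) in run 2.

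COX7A2 (chr9:14833566-14838676), the isoform found in most tissues, had 23.6 to 55.3 (median 34.4) CPM in control and 25.04 to 90.7 (median 41.7) in heat stress and did not pass the test (0.34 ± 0.19, edgeR adjusted p = 0.174). COX7A2L (chr11:24756889-24769249), a relative that acts in joining complexes III and IV into supercomplexes, had 76.8 to 136 (median 105) CPM in control and 93.5 to 176 (median 116.3) in heat stress in Takara (0.15 ± 0.12, edgeR adjusted p = 0.322).

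The other isoform pairs of complex IV were detected unevenly. COX4I1 had 1057 to 1345 (median 1209.9) CPM in control and 1061 to 1542 (median 1187) in heat stress, with a log2 fold change of 0.03 ± 0.08 (edgeR adjusted p = 0.825). COX4I2, known from lung and low oxygen, had 0 counts in all 54 libraries. This allows up to 0.00997 CPM over the Takara libraries and 0.00966 CPM over the Lexogen libraries (3 counts of all counts on genes, for counting error only). COX6A1, COX6B1 and COX7B, the widely expressed isoforms, had median levels of 568, 274 and 80.7 CPM in control and 554, 321 and 77.4 CPM in heat stress. Their log2 fold changes of 0.07 ± 0.09, 0.11 ± 0.10 and 0.08 ± 0.11 did not pass the test. The isoforms COX6A2 (muscle) and COX6B2 and COX7B2 (testis) did not pass the filter on low counts in either kit.

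COX8A, the widely expressed isoform of subunit VIII, had 221 to 291 (median 249.5) CPM in control and 209 to 372 (median 235) in heat stress (0.08 ± 0.09, edgeR adjusted p = 0.531). COX8B, known as a muscle isoform, varied widely, with 11.02 to 180.03 (median 34.7) CPM in control and 10.1 to 78.1 (median 25.2) in heat stress (-0.38 ± 0.37, edgeR adjusted p = 0.452). Its gene (chr11:82923058-82924568) lies wholly within NBAS. COX6C had 252 to 497 (median 346) CPM in control and 241 to 411 (median 316.1) in heat stress, and was lower in 11 of 12 animals without passing the test (-0.24 ± 0.10, edgeR adjusted p = 0.0747).

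Complex V makes ATP with a rotating ring of c subunits in the membrane, a catalytic head and a stalk that holds the head. ATP5MC2 (chr5:26370080-26378374), which encodes the c subunit, had 207 to 297 (median 237) CPM in control and 139 to 283.3 (median 184) in heat stress. It was lower in 11 of 12 animals (-0.35 ± 0.11, edgeR adjusted p = 0.0214). ATP5MC1 and ATP5MC3 encode the same mature protein with other import signals. ATP5MC1 had 86.2 to 122 (median 95.4) CPM in control and 51.5 to 127 (median 73.4) in heat stress (-0.31 ± 0.13, edgeR adjusted p = 0.0592, 0.0451 with the animal as a block). ATP5MC3 had 218 to 329 (median 282.7) CPM in control and 167 to 358 (median 221) in heat stress (-0.15 ± 0.11, edgeR adjusted p = 0.318). Levels were lower after heat in 10, 11 and 11 of 12 animals for ATP5MC1, ATP5MC2 and ATP5MC3.

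ATP5F1E (chr13:57357647-57361338), the epsilon subunit of the catalytic head, had 42.8 to 105 (median 64.3) CPM in control and 39.7 to 77.7 (median 54.7) in heat stress. It was lower in 9 of 12 animals (-0.39 ± 0.14, edgeR adjusted p = 0.0331, 0.0526 with the animal as a block). Within the runs its log2 fold change was -0.08 (edgeR adjusted p = 0.658) in run 1 and -0.64 (adjusted p = 0.0365) in run 2, and this difference was not tested. Control libraries had 42.8 to 64.3 CPM in run 1 and 83.4 to 105 CPM in run 2, without overlap. ATP5PB (chr3:31846422-31863330), the b subunit of the stalk, was up-regulated. Levels were 202 to 306 (median 258) CPM in control and 200.2 to 429 (median 314.2) in heat stress, and 12 of 13 heat stress libraries lay above the control median. The log2 fold change was 0.37 ± 0.11 (edgeR adjusted p = 0.0166), with 8 of 12 animals higher. It was 0.08 (adjusted p = 0.507) with the total count as library size.

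**Figure D2:**
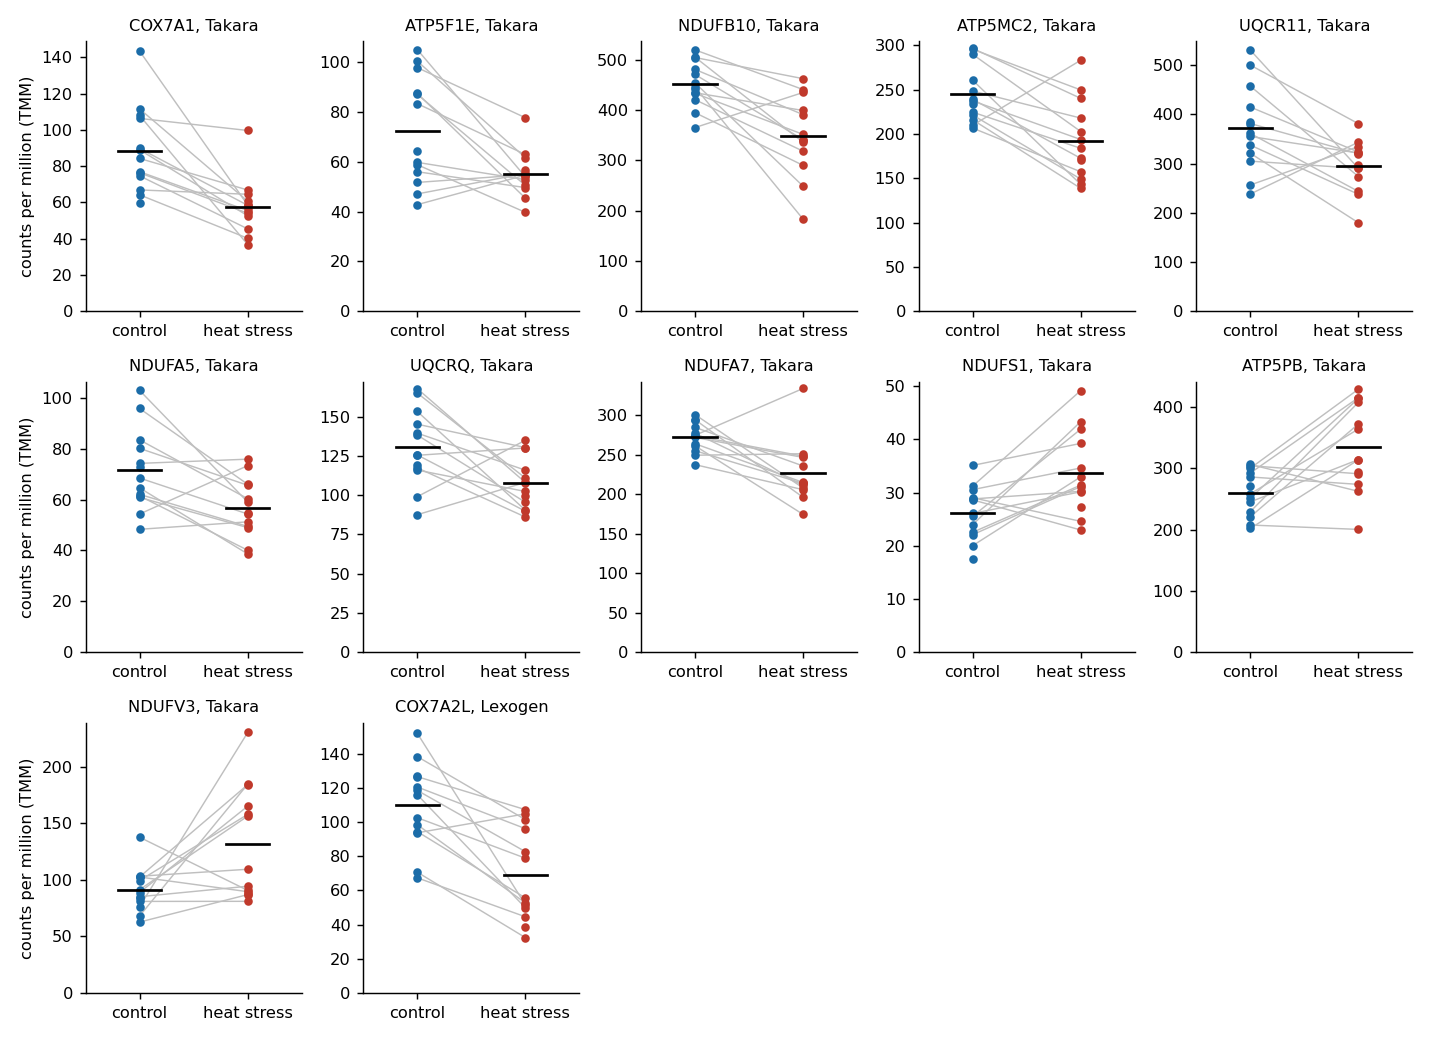
Level of 11 of the 12 Takara DEGs and of the Lexogen DEG (COX7A2L) in every library, in CPM with TMM library sizes (vertical axis, from 0). Blue points are control and red points heat stress libraries (13 each), grey lines join the libraries of an animal, and bars are means. In COX7A1 all 12 lines fall, and the groups overlap in every panel.

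In Lexogen libraries, 1 of the 79 tested members was a DEG, COX7A2L, which was down-regulated (7 members were at an unadjusted p under 0.05). The background was 5.55% of 11108 genes, with 5.09% up-regulated and 0.459% down-regulated. COX7A2L had 67.4 to 152 (median 116.1) CPM in control and 32.4 to 107 (median 55.6) in heat stress. All 13 heat stress libraries lay below the control median, and 11 of 12 animals were lower. The log2 fold change was -0.67 ± 0.19 (edgeR adjusted p = 0.0344), -0.67 (adjusted p = 0.0721) with the animal as a block, and -0.57 (adjusted p = 0.12) without the heat stress libraries of animals 15 and 18. It was a DEG in 7 of the 14 fits that left out 1 animal, and not without animal 7, 12, 14, 15, 18, 36 or 40, with log2 fold changes from -0.75 to -0.59 over all 14. Within the runs it was -0.57 (edgeR adjusted p = 0.318) and -0.73 (adjusted p = 0.378). Over all genes, 46 were up-regulated and 17 down-regulated with the block. In run 2 alone 0 of 11459 genes passed the edgeR test (1275 at an unadjusted p under 0.05).

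The median log2 fold change in Lexogen was -0.22 over the 79 members and -0.08 over all genes. By complex it was -0.12 in I, -0.26 in II, -0.31 in III, -0.19 in IV and -0.25 in V. Below 0 lay 25 of 37 genes in complex I, 3 of 4 in complex II, 8 of 8 in complex III, 8 of 13 in complex IV and 15 of 17 in complex V, against 55.8% of all genes. Without animal 19, the median of complex II was 0.25. Values had a median standard error of 0.29 in Lexogen and 0.11 in Takara. The extremes were COX8B at 1.35 ± 0.91 (edgeR adjusted p = 0.496) and NDUFA9, an accessory subunit of complex I, at -0.79 ± 0.48 (adjusted p = 0.436), and neither passed the test. COX8B was at -0.22 with the animal as a block, and NDUFA9 was at 0.37 in run 2 alone and at -0.47 with sense counts.

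The Takara DEGs described above had the following log2 fold changes in Lexogen. Of those down-regulated in Takara, COX7A1 was at -0.67 ± 0.71, NDUFB10 at -0.45 ± 0.18, NDUFA5 at -0.46 ± 0.26 and UQCR11 at -0.42 ± 0.30. UQCRQ was at -0.31 ± 0.27, ATP5F1E at -0.53 ± 0.44, ATP5MC2 at 0.01 ± 0.34 and NDUFA7 at 0.11 ± 0.50. Those up-regulated in Takara were at 0.31 ± 0.26 (NDUFV3), 0.16 ± 0.21 (NDUFS1) and -0.06 ± 0.14 (ATP5PB). None of the 12 passed the test in Lexogen. COX7A1 was also low there, with 0 to 18.8 (median 7.72) CPM in control and 0 to 22.6 (median 1.93) in heat stress, while NDUFB10 had 87.8 to 186 (median 144.9) and 34.9 to 159.7 (median 106) CPM.

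A call in 1 kit and not in the other does not show that the kits differ, so the interaction of kit and condition was tested in the 24 RNA samples with both kits. No member passed (0 of 79 by edgeR, 2 at an unadjusted p under 0.05), and the background was 0.0% of 13354 genes (526 at an unadjusted p under 0.05). COX7A2L had the smallest p of the members, with a heat effect 0.67 ± 0.22 higher in Takara than in Lexogen on the log2 scale (edgeR p = 0.00567, adjusted p = 1.0). The median standard error of this difference was 0.32 over the members, larger than most of the Takara changes.

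**Figure D3:**
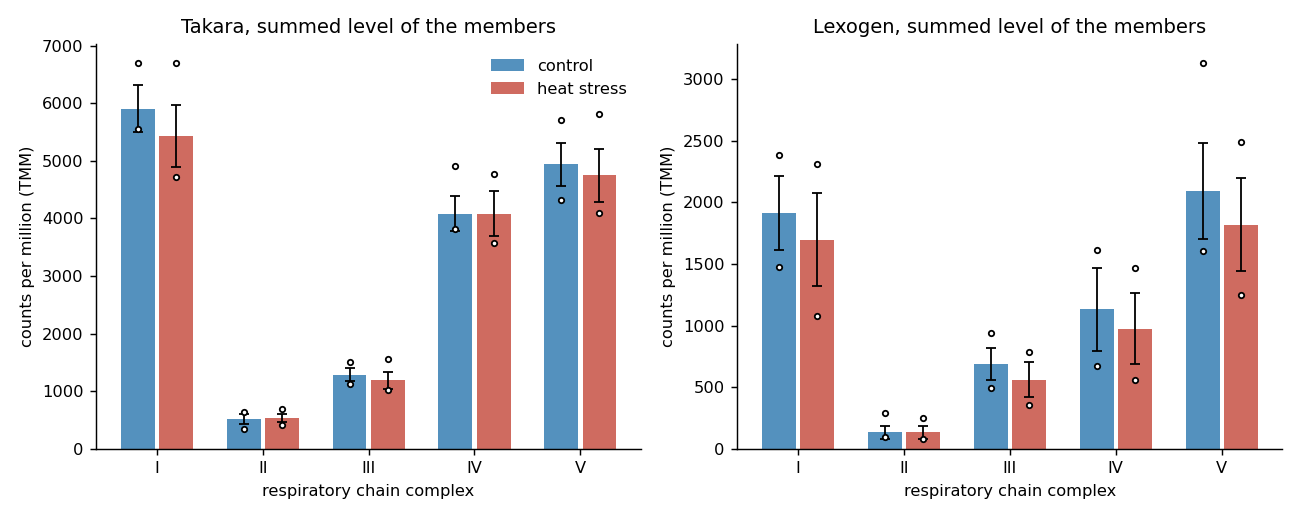
Summed level of the genes of each complex in CPM with TMM library sizes (vertical axes, from 0, on different scales), by complex, in Takara (left) and Lexogen (right). Bars are means of 13 control (blue) and 13 heat stress (red) libraries, error bars are SD, and open points are the lowest and highest library. The ranges of the groups overlap in every complex.

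Summed over each complex, the ranges of the groups overlapped in both kits. In Takara, complex I had 5554 to 6694 CPM in control (median 5726) and 4715 to 6690 in heat stress (median 5355), and was lower in 9 of 12 animals. Complex V had 4319 to 5714 CPM in control (median 4900) and 4088 to 5814 in heat stress (median 4658), and was also lower in 9 of 12. Complex IV had medians of 3969 CPM in control and 3968 in heat stress, complex III of 1290 and 1191, and complex II of 568 and 529. These were lower in 7, 8 and 6 of 12 animals, and the mean of complex II was 520 in control and 536 in heat stress. In Lexogen the medians were 1897 and 1665 CPM for complex I, 115.04 and 110 for complex II, 678 and 515 for complex III, 1056 and 949 for complex IV, and 1958 and 1847 for complex V. Complexes I to V were lower there in 7, 6, 8, 6 and 7 of 12 animals.

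Some markers of blood cell types moved with the same comparison, in which 18.4% of all Takara genes were up-regulated and 10.5% down-regulated. In Takara, 7 of 9 tested neutrophil markers were up-regulated and 0 down-regulated (median log2 fold change 2.18). Their summed level was 4349 to 20165 CPM in control and 3822 to 109620 in heat stress, and S100A12 had a median of 6700.3 CPM in control and 26249 in heat stress. Monocyte markers were up-regulated in 4 of 7, with a summed level of 175 to 855 CPM in control and 447 to 2221 in heat stress. T cell markers were down-regulated in 4 of 10, with 1042 to 2139 CPM in control and 721 to 1586 in heat stress. Of the B cell markers 1 of 8 was down-regulated (565 to 976 CPM in control and 228 to 990 in heat stress), and of the NK and cytotoxic markers 1 of 6 was up-regulated (245 to 911 and 315.2 to 1329). These 2 shares, 12.5% and 16.7%, lay near those of all genes. No platelet marker (0 of 4, with 0 at an unadjusted p under 0.05, 1230.0 to 6352 and 1296 to 3995 CPM) and no tested erythroid marker (0 of 2, with 0 at an unadjusted p under 0.05, 470.3 to 3543 and 611 to 2548 CPM) passed the edgeR test. In Lexogen 5.09% of all genes were up-regulated and 0.459% down-regulated. There, 0 of 9 T cell, 0 of 8 B cell, 0 of 4 platelet and 0 of 2 erythroid markers passed the edgeR test. At an unadjusted p under 0.05 lay 1 of these, an erythroid marker. Up-regulated were 6 of 9 neutrophil, 1 of 7 monocyte and 1 of 6 NK and cytotoxic markers. Summed neutrophil markers were at 1242 to 7066 CPM in control and 1668 to 32656 in heat stress. The part of these shifts in the subunit results was not tested.

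Levels differed between the kits for most members. In the 24 RNA samples with both kits, 67 of 79 members were higher and 7 lower in Takara (edgeR with the RNA sample as a block, adjusted p under 0.05). Over 13354 genes the background was 71.6%, with 45.3% higher and 26.3% lower. The median log2 ratio of Takara to Lexogen was 1.54 over the members and 0.48 over all genes. By complex it was 1.57 in I, 2.39 in II, 0.97 in III, 2.18 in IV and 1.20 in V. SDHC, the highest of complex II, had 24.8 to 111 CPM in Takara (median 62.2) and 0 to 40.2 in Lexogen (median 2.55), with 4 Lexogen libraries at 0. The CPM, and the counts of RNA samples higher or lower in a kit, were scaled within each kit. The log2 ratios were scaled over both kits together, so CPM and ratios are on different scales. With RLE size factors 68 members were higher and 7 lower, and the median ratio of all genes moved from 0.48 to 0.61. In run 1 alone 63 were higher and 5 lower, and in run 2 alone 59 and 8.

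The ratios varied among paralogues. COX4I1 (3.02 ± 0.16 on the log2 scale), COX6A1 (2.28 ± 0.14), COX6B1 (3.69 ± 0.35), COX8A (2.31 ± 0.13) and COX7A1 (3.93 ± 0.35) were higher in Takara, each in 24 of 24 RNA samples. COX7A2 was lower in Takara (-1.21 ± 0.18), with 23.6 to 90.7 CPM in Takara (median 36.5) and 27.9 to 155 in Lexogen (median 75.5). COX7A2L had a ratio of 0.05 ± 0.13 (edgeR adjusted p = 0.729), which was -0.18 with sense counts and -0.35 in run 2 alone. Among the c subunit genes of complex V the log2 ratio was 3.33 ± 0.34 for ATP5MC1, 1.91 ± 0.20 for ATP5MC2 and 0.28 ± 0.08 for ATP5MC3, so that genes with the same mature product had different ratios.

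The 7 genes lower in Takara are named after their values were seen. They were NDUFS1 (-1.33 ± 0.13), NDUFB3 (-0.64 ± 0.20) and NDUFS4 (-0.61 ± 0.12) of complex I, UQCRC2 (-1.08 ± 0.25), UQCRH (-0.86 ± 0.08) and UQCRB (-0.67 ± 0.11) of complex III, and COX7A2 of complex IV. UQCRH had 117.6 to 249 CPM in Takara (median 166) and 136 to 392.1 in Lexogen (median 281.1), and was lower in Takara in 23 of 24 RNA samples. NDUFS1 was lower in Takara in 23 of 24, with medians of 29.6 and 60.6 CPM. Of the 13 subunits encoded in the mitochondrial genome, 11 were lower and 1 higher in Takara, with a median log2 ratio of -1.64.

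**Figure D4:**
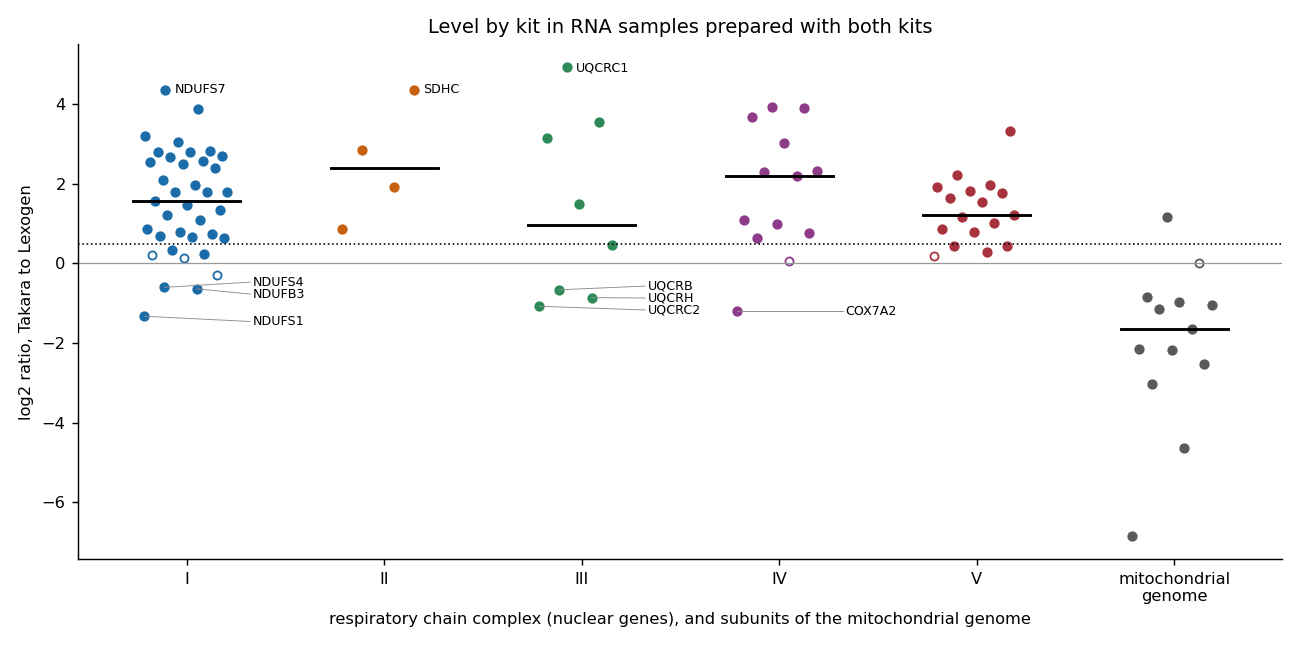
Log2 ratio of the level in Takara to that in Lexogen (vertical axis) of each tested member, by complex, and of the 13 subunits of the mitochondrial genome (grey), in 24 RNA samples. Filled points passed the test, open points did not, bars are medians, and the dotted line is the median of all genes tested (0.48). In total 67 of 79 nuclear genes are higher in Takara, and 11 of 13 mitochondrial genes are lower.

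Some members overlap a neighbouring gene, and a read that fits both genes may be counted for neither when strand is ignored. The overlaps given here are of whole gene spans, and a span overlap did not by itself go with a loss of counts. COX8B lies wholly within NBAS, and ATP5F1C overlaps LOC112449254 by 8938 bases. In Takara they kept 100.02% and 100.2% of their sense counts. For 5 members the unstranded counts, which were used throughout, were well below the sense counts. ATP5ME, a small membrane subunit of complex V that overlaps MYL5 by 902 bases, kept 14.71% in Takara and 31.02% in Lexogen of its sense counts. NDUFA2 (overlapping TMCO6 by 213 bases) kept 20.73% in Takara and 25.08% in Lexogen. UQCRC1 (LOC132343518, 192 bases) kept 30.20% in Takara and 19.67% in Lexogen, NDUFB2 (BRAF, 4998 bases) kept 37.52% in Takara and 30.89% in Lexogen, and UQCRC2 (PDZD9, 4917 bases) kept 75.50% in Takara and 89.14% in Lexogen. Among the DEGs, NDUFS1 overlaps LOC112442246 by 5891 bases and ATP5MC2 overlaps LOC112446668 by 1280 bases, and both kept about all of their sense counts (101.25% in Takara and 103.10% in Lexogen for NDUFS1, 99.90% in Takara and 101.28% in Lexogen for ATP5MC2). In ATP5F1E the unstranded count was above the sense count, at 107.50% in Takara and 154.43% in Lexogen, so that it holds antisense reads. In Lexogen this also held for SDHC (130.33%), NDUFA9 (127.81%) and ATP5MC1 (117.94%), among others. The heat log2 fold change of SDHC in Lexogen was -0.29 ± 0.87, and 0.03 with sense counts.

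The choice of count column moved single values. The kit ratio of UQCRC1, the highest of the members at 4.92 ± 0.57 on the log2 scale, was 2.87 with sense counts. NDUFB2 had a heat log2 fold change of 0.14 ± 0.13 in Takara and 0.54 ± 0.39 in Lexogen with unstranded counts, and of -0.09 and -0.28 with sense counts. None of these passed the test. The kit ratio of NDUFB2 was 0.68 ± 0.25 (edgeR adjusted p = 0.014), called higher in Takara, and -0.08 (adjusted p = 0.504) with sense counts. With sense counts the same 12 members were DEGs in Takara and the same 1 in Lexogen, and ATP5F1E was at -0.42 (edgeR adjusted p = 0.0211) in Takara.

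**Figure D5:**
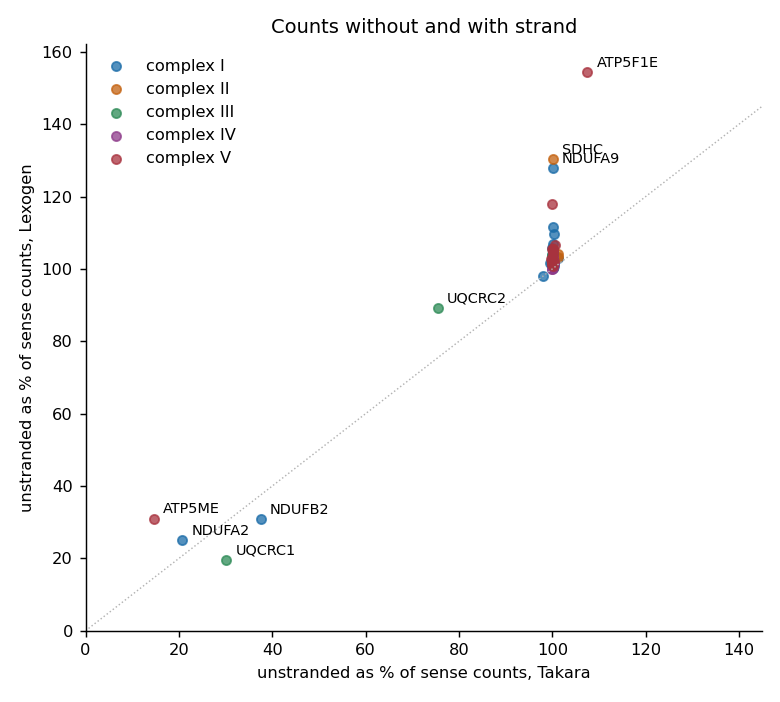
Unstranded counts as a percentage of sense counts, summed over the 27 libraries of each kit, in Takara (horizontal axis) and Lexogen (vertical axis), for members with a count in at least 20 Takara libraries. Points are coloured by complex and the dotted line marks equal percentages. Most members lie near equality of both columns, and ATP5ME, NDUFA2, UQCRC1, NDUFB2 and UQCRC2 lie below in both kits.

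Other genes of the pathway, outside the rule, came from lists written with earlier results known. Of 55 tested assembly factors, which build the complexes, 4 were up-regulated and 10 down-regulated in Takara (median log2 fold change -0.16). The share of DEGs in either direction is 25.5%, near the 28.9% of all genes. By direction the list differed, as 18.4% of all genes were up-regulated and 10.5% down-regulated. Below 0 lay 43 of the 55 (78.2%), against 55.0% of all genes. This difference was not tested. FOXRED1, an assembly factor of complex I, had the highest value (1.94 ± 0.39, edgeR adjusted p = 0.000839) and PET117, of complex IV, the lowest (-1.34 ± 0.38, edgeR adjusted p = 0.0107). In Lexogen 0 of 51 passed the edgeR test (2 at an unadjusted p under 0.05). Of the 13 subunits of the mitochondrial genome, 3 were down-regulated in Takara, COX2 (-0.34 ± 0.12), ATP8 (-1.53 ± 0.55) and CYTB (-0.32 ± 0.12), and the median of the 13 was -0.24. The share is 23.1%, against 28.9% of all genes in either direction and 10.5% down-regulated. In Lexogen 0 of the 13 passed the edgeR test (5 at an unadjusted p under 0.05), and all 13 lay below 0 with a median of -0.26.

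Chain genes that the rule does not catch, such as CYCS (cytochrome c) and CYC1 (cytochrome c1 of complex III), held 0 DEGs of 6 in each kit by edgeR (1 at an unadjusted p under 0.05 in Takara, 0 in Lexogen). Among 13 tested regulators of mitochondrial biogenesis in Takara, the median log2 fold change was -0.10. Below 0 lay 8 of the 13 (61.5%), against 55.0% of all genes. None was down-regulated, and 3 were up-regulated. They were the transcription factors NRF1 (0.42 ± 0.12, edgeR adjusted p = 0.00903), GABPA (0.50 ± 0.15, edgeR adjusted p = 0.013) and ESRRA (0.74 ± 0.22, edgeR adjusted p = 0.012), which are known to act at promoters of subunit genes. The share of 23.1% up-regulated is near the 18.4% of all genes. In Lexogen 0 of 12 passed the edgeR test (1 at an unadjusted p under 0.05).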

How the data were processed

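The authors used forward reads, with Trimmomatic 0.39 for trimming and STAR 2.7.10b for alignment to the bovine genome ARS-UCD2.0, and deposited STAR's raw counts per gene in unstranded, sense and antisense columns. The column that was analysed in the study is not given in the sources used here, and the unstranded counts were used. The reads carry no molecular identifiers, and the limits for COX4I2 cover counting error only. The standard errors also hold the spread between libraries. The members and the gene lists were chosen with earlier results of these data known.

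Each kit was tested with edgeR 4.0.16 in R 4.3.3 (filterByExpr, TMM, quasi-likelihood test of condition alone, Benjamini-Hochberg adjustment over all genes tested). Standard errors were computed from the log2 fold change and its F statistic. Levels (CPM) are counts scaled by TMM library size within each kit, while the kit ratios used TMM over the libraries of both kits together. Levels were not compared between genes. Kits were compared in the 24 RNA samples with both libraries, with the RNA sample as a block. The steps were tested on simulated data. Values were given for the 3 members per complex with the smallest p in Takara, the 3 highest and 3 lowest log2 fold changes per kit, members called in Lexogen, the SDH genes and the paralogue sets, 34 genes in all, of which 1 is not reported here.

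Libraries of an animal share its number in the labels, so the numbers pair the samples. Their centred levels correlated above 0.1 between conditions in 10 of 12 animals in Takara (median 0.24) and in 3 of 12 in Lexogen (median 0.01). As in the study, the main model had no animal term. The p-values of the main model measure the spread between libraries of 1 trial, and treat the libraries of an animal as independent. In the kit comparisons they measure the spread of the kit difference over the RNA samples. Gene positions came from the RefSeq gene table of ARS-UCD2.0, in which all 84 members were found. No sequences were used here. Alternatives were the animal as a block, RLE size factors, total counts, DESeq2 1.42.0, no filter, sense counts, both assignments of animal 20, the runs of sample numbers, and each animal left out. Leaving out the heat stress libraries of animals 15 and 18 was added after the data were seen.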

Additional observations from a re-analysis of the deposited data

How the results depend on the processing

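The kits differed in level for 67 to 75 subunits under every alternative run, and the interaction was called for 0 under each. The counts of heat DEGs depended on the choices. In Takara there were 12 (3 up, 9 down), and 7 (5 down) with the animal as a block, 23 (0 up, 23 down) with the total count as library size, 5 down without the low-count filter, 0 with animal 20 as control, 5 (0 up, 5 down) in run 1 alone, 1 (0 up, 1 down) in run 2 alone, and 3 (0 up, 3 down) without the heat stress libraries of animals 15 and 18. Leaving out each animal gave 5 to 15, with 1 to 4 up and 4 to 12 down. Over all genes, Takara gave 2325 up and 1321 down of 12620 in the main fit. With the animal as a block these were 1881 and 1281 of 12651, and with the total count 1303 and 2185 of 12620. Without the low-count filter they were 3604 and 1303 of 24553, and 0 with animal 20 as control. Run 1 alone gave 1879 and 751 of 12791, and run 2 alone 608 and 323 of 12661. Without the heat stress libraries of animals 15 and 18 there were 1623 and 747 of 12783. In Lexogen the count of 1 became 0 with the block, with animal 20 as control, in run 2 alone and without the heat stress libraries of animals 15 and 18, and 2 in run 1 alone, which were COX7A2 and COX7C and not COX7A2L, and ranged from 0 to 1 over the animals left out. Over all genes, Lexogen gave 565 up and 51 down of 11108 in the main fit, and 46 and 17 of 11087 with the block. With animal 20 as control it gave 2 and 0 of 11222. In run 2 alone it gave 0 of 11459 (edgeR, 1275 at an unadjusted p under 0.05). Run 1 alone gave 379 and 23 of 11532. Without the heat stress libraries of animals 15 and 18 there were 277 and 38 of 11428. The causes were not tested, except that fits of single runs hold fewer samples.

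The Takara medians of complexes I to V were -0.35, -0.17, -0.26, -0.21 and -0.35 with the total count. Complex II was -0.26 in run 1 and 0.40 in run 2, and complex III was 0.18 in run 2. In Lexogen, run 1 gave -0.50 for complex I and -0.57 for complex IV, and run 2 gave 0.0208 for complex III, 0.53 for complex IV and 0.19 for complex V. The complex II median in Lexogen ranged from -0.3843 to 0.2453 over the animals left out.

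Over the 79 members, the heat log2 fold change had another sign in 21 in Takara with the total count, 14 in run 1 and 15 in run 2, and in Lexogen in 12 with the block, 14 in run 1 and 32 in run 2. None of these was called in the kit concerned. Among kit ratios, 5 changed sign with sense counts, of which 1 was called (NDUFB2, -0.0811). The genes given below are some of those described in the report. In Takara, with the total count, they were COX4I1 -0.21, COX6A1 -0.17, COX6B1 -0.14, COX7A2L -0.10, COX7B -0.17, COX8A -0.18, NDUFB2 -0.066 and SDHC -0.0649. In run 1 they were COX6A1 -0.0421, COX7A2L -0.0078, COX7B -0.0345, COX8B 0.15 and SDHC -0.19, and in run 2 ATP5MC3 0.0374, SDHA 0.26 and SDHD 0.25. NDUFB2 was -0.088 with sense counts and COX4I1 -0.001 with animal 20 as control. COX4I1 ranged from -0.0053 to 0.0524 over the animals left out. In Lexogen, ATP5MC2 was -0.14 with the block, -0.0663 with the total count, -0.0005 without the filter, -0.0044 with animal 20 as control, -0.79 in run 1, -0.0173 with the run as a covariate and -0.0109 without the heat stress libraries of animals 15 and 18, and ranged from -0.20 to 0.31 over the animals left out. NDUFA7 was -0.0664 with the block and -0.59 in run 1, and ranged from -0.18 to 0.42. COX8B was -0.22 with the block, NDUFB2 -0.28 with sense counts, NDUFV3 -0.0146 in run 1, and NDUFA9 0.37 and UQCR11 0.22 in run 2. ATP5PB was 0.0496 without the heat stress libraries of animals 15 and 18. The ratio of COX7A2L between kits was -0.18 with sense counts, -0.35 in run 2 and -0.0337 without the RNA samples of animals 15 and 18 after heat.

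With the animal as a block, COX7A2L in Lexogen and NDUFS1, NDUFA7, NDUFA5, UQCR11, UQCRQ and ATP5F1E in Takara were no longer called and ATP5MC1 was. In Lexogen the median standard error of 0.29 limits what can be seen in single subunits.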
